A study of Rattus norvegicus with 21 samples.

Results

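The nuclear receptors are a superfamily of transcription factors, and 43 rat members of it, matched by gene symbol, were followed in liver RNA-seq data. The 43 genes were 43 of the 32623 genes in each of the deposited tables, and every symbol was found in both. One table held 12 liver libraries from Wistar rats: control d23, early weaned d23, control d63 and early weaned d63. The other held 9 from SD rats, all at d211: control, early weaned, and early weaned with 1.5% leucine given through the water. Each of the 7 groups had 3 libraries, and the numbers after d are ages in days. The labels give neither the day of weaning nor the sex, and do not say whether the libraries came from separate animals, so the p-values measure the spread between these libraries. The d211 age was measured in SD rats alone, so strain and that age cannot be told apart and the tables were never tested against each other.

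Nuclear receptors share a zinc-finger domain that reads short DNA half-sites related to AGGTCA and, in most members, a pocket that binds a small lipophilic ligand. In liver, many work as heterodimers with a retinoid X receptor: the PPARs sense fatty acids, the LXRs oxysterols, FXR bile acids, and CAR and PXR foreign chemicals. Steroid receptors such as the glucocorticoid receptor bind DNA mostly as homodimers after release from chaperones, and the NR4A receptors act without a known classical ligand and are induced as immediate-early genes.

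Total counts ran from 52054644 to 75118153 per library. The hepatocyte markers were all detected in every group, with 8 of 8 matched and a summed level of 58530 to 114600 FPKM (fragments scaled to transcript length and library depth). Of 5 adipocyte markers, Adipoq, Lep and Plin1 were listed at 0 in all 12 Wistar libraries and Retn in all but control d23 replicate 3, at 0.15 FPKM, while Cfd stood at 8.46 to 16.9 FPKM. One library lay nearer to another age: control d23 replicate 3 correlated at 0.923 with the mean of its own group and at 0.949 with the d63 controls, over log2(FPKM + 1) of 13128 genes. Several lay nearer to the other weaning group of their age. Control d23 replicates 1 and 2 correlated with it at 0.984 and 0.982, against 0.969 and 0.971 with their own group, whose mean holds replicate 3. Early weaned d23 replicate 1 correlated at 0.9805 with the d23 controls and at 0.9783 with its own group. Control d63 replicates 1 and 3 stood at 0.981 and 0.983 against 0.977 and 0.978 with their own group, whose mean holds replicate 2. That replicate had the lowest correlation with its own group among the d63 libraries, 0.959. It held 42.7 FPKM of Nr1i3 against 105 and 101 in the other d63 controls, and 20.4 of Rxrg against 9.91 and 8.38. Among target genes it held 9.41 FPKM of Cyp4a2 against 886 and 1008. At d211, early weaned replicate 2 correlated at 0.971 with its own group, at 0.977 with the leucine group and at 0.9735 with the controls. Control replicate 1 correlated at 0.978 with its own group and 0.981 with the leucine group. Leucine replicate 3 correlated at 0.9797 with its own group and 0.9804 with the controls. All were kept, and the calls that changed without control d23 replicate 3 or early weaned d211 replicate 2 are given. Without control d211 replicate 1, Ppard was still the one member called for early weaning (log2 fold change 2.25, adjusted p = 0.042) and for leucine (-2.48, adjusted p = 0.0261), from edgeR. In whole tissue, fewer cells of a type and less RNA per cell cannot be told apart.

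Most of the superfamily was expressed. With expression defined as an FPKM of at least 0.5 in at least 3 libraries of a table, 35 of 43 members were expressed in the Wistar table and 33 in the SD table, against 40.2% and 39.1% of all listed genes. Expression in both tables was found for 33 members, and 2, Nr6a1 and Nr4a3, reached it in the Wistar table alone. The 8 that reached it in neither table were Vdr, Nr5a1, Esrrb, Pgr, Rorb, Nr2e3, Esr2 and Nr0b1. Of these, Rorb, Nr2e3, Esr2 and Nr0b1 were listed at 0 in all 21 libraries, which in a deposited table says only that no fragment was assigned to them. Vdr, the vitamin D receptor, did not exceed 0.09 FPKM in any library, although its counts passed the filter for testing in the Wistar table.

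A few receptors of hepatocyte identity and of lipid and xenobiotic sensing held the largest levels. Hnf4a, a master regulator of the hepatocyte programme, had the highest mean over the 21 libraries at 105 FPKM, with a range of 65.9 to 158. Nr1i2, which encodes PXR, followed at 89.9 FPKM with a range of 44.9 to 129. Rxra, the shared heterodimer partner, averaged 66.4 FPKM, Nr1h3, which encodes LXRα, 64.4 FPKM, and Nr1i3, which encodes CAR, 56.0 FPKM. The ranges of these 5 genes overlapped over the libraries, so the order between neighbours is not firm. Next came Nr0b2 (SHP, a repressor without a DNA-binding domain), which ranged from 5.85 to 86.0 FPKM, Nr2f6 from 10.6 to 70.6, Nr1h4 (FXR) from 22.7 to 50.9 and Nr1h2 (LXRβ) from 19.5 to 31.5. Nr3c1 (the glucocorticoid receptor) ranged from 10.3 to 38.7 FPKM, Esrra (ERRα, a partner of PGC-1 coactivators) from 8.83 to 42.2 and Nr5a2 (LRH-1, a regulator of bile acid genes) from 6.54 to 46.3. Together the 43 genes summed to 519 to 775 FPKM per library. The leading 5 made up 65.8% to 68.2% of that sum in the 6 d63 libraries and 44.0% to 56.5% in 5 of the 6 d23 libraries, and 66.8% in control d23 replicate 3.

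**Figure D1:**
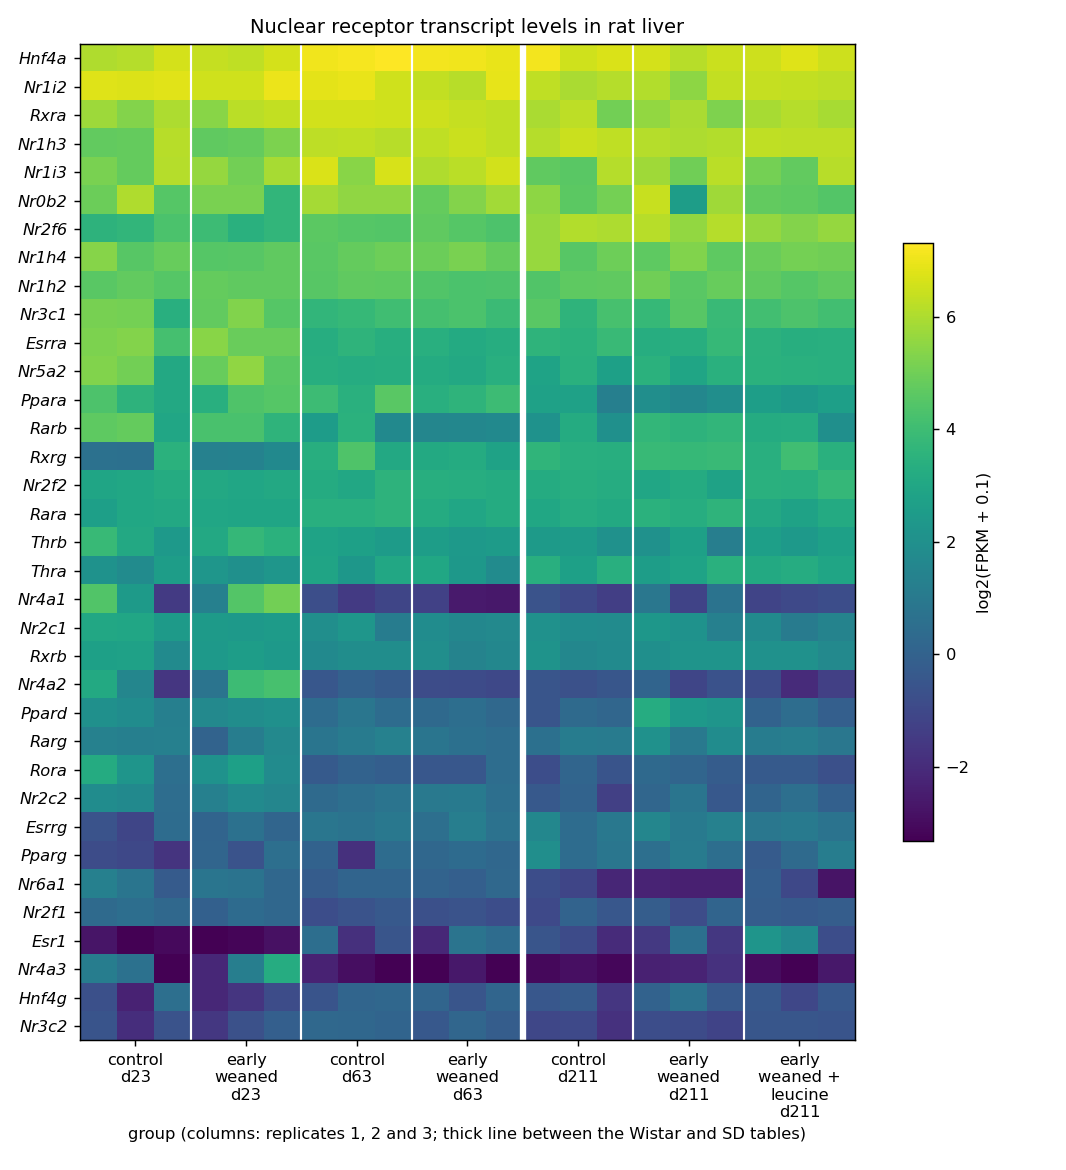
Heat map of log2(FPKM + 0.1) for the 35 expressed receptors (rows, by mean FPKM) in 21 liver libraries (columns, 3 per group, with a thick line between the Wistar and the SD table). Hnf4a and Nr1i2 lead in level, the Nr4a genes and Rora are bright in most d23 libraries, and control d23 replicate 3 resembles the d63 columns for many rows.

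Age was the contrast in which most receptors differed. Between d23 and d63, 13 of the 36 members tested were called in controls, 5 higher and 8 lower at d63, and 14 in early weaned rats, 4 higher and 10 lower. A call is an adjusted p under 0.05 from edgeR's quasi-likelihood test with Benjamini-Hochberg adjustment over all 15416 genes tested. The background was 17.6% of all genes in controls and 27.0% in early weaned rats, and the members' shares were 36.1% and 38.9%. In FPKM, the ages did not overlap for 32.4% of all genes tested in controls and 52.2% in early weaned rats. Among the members tested these shares were 38.9% and 66.7%, so a lack of overlap with age was common. The median log2 fold change of the members was -0.08 in controls beside -0.04 for all genes, and -0.33 in early weaned rats beside -0.02. These contrasts share no library. The called lists had 10 genes in common, 76.9% of the control list and 71.4% of the early weaned list: Esr1, Esrra, Hnf4a, Nr2f1, Nr2f6, Nr4a1, Nr5a2, Ppard, Rarb and Rora. No member's change with age was called as different between weaning groups (edgeR), and 0.00649% of all genes were. At an unadjusted p under 0.05, 1 member, Nr1h4, differed, against 4.72% of all genes. DESeq2 also called 0 members there.

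Leaving out a library moved these counts. Without control d23 replicate 3, 24 of 36 members were called in controls, among them all 13, while the background rose to 37.9% (6001 of 15820 genes). Without control d23 replicate 1 or 2 the count was 4, without control d63 replicate 1 it was 3 and without replicate 3 it was 4. It was 8 without early weaned d23 replicate 2 or early weaned d63 replicate 2 or 3, which enter through the shared spread. In early weaned rats the count was 8 without early weaned d23 replicate 2 or early weaned d63 replicate 1, and 9 without early weaned d63 replicate 2 or 3. Called in all 12 fits that left out 1 library were Ppard, Hnf4a and Esrra in controls, and Rarb, Ppard, Nr1h3, Hnf4a, Nr2f6, Esrra and Nr4a1 in early weaned rats. Under limma on log2(FPKM + 1) the control calls split into 8 higher and 6 lower.

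**Figure D2:**
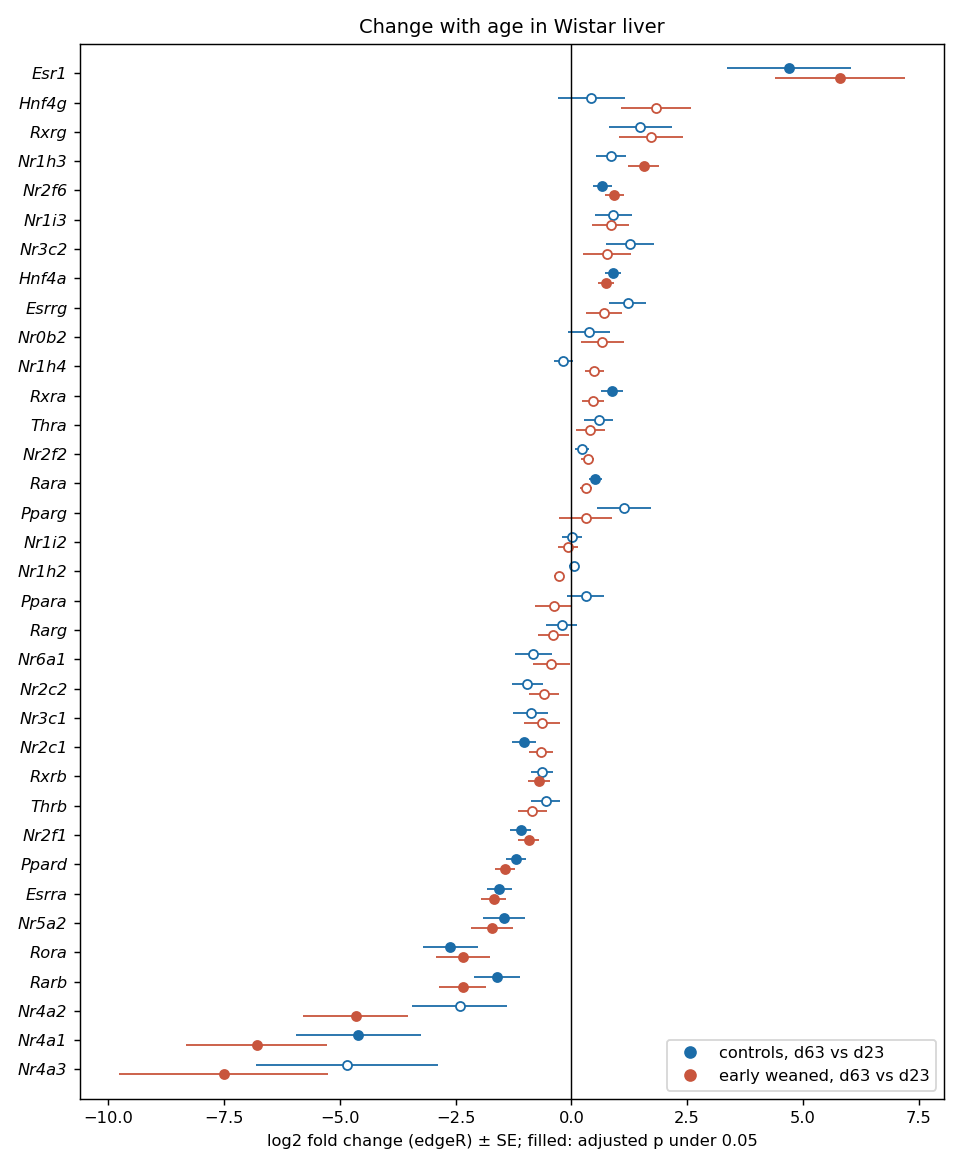
Log2 fold change from d23 to d63 (edgeR, x axis, ± SE) for each expressed receptor (rows) in controls (blue) and in early weaned rats (red), with filled points where the adjusted p was under 0.05. Nr4a1, Rarb, Rora, Nr5a2, Esrra and Ppard lie left of 0 and Hnf4a, Nr2f6 and Esr1 right of 0 in both groups, and the points of Esr1 and Nr4a3 rest on few counts at one of the ages.

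Among the lipid sensors and their RXR partners, Nr1h3 rose in early weaned rats, Rxra rose in controls and Ppard fell in both, while Ppara, Pparg, Nr1h2 and Nr1h4 were not called. Nr1h3, the oxysterol receptor that drives lipogenic and sterol efflux genes, stood at 27.0, 27.6 and 71.8 FPKM in the d23 controls and 75.5, 78.5 and 72.4 in the d63 controls. The early weaned level was 25.7, 27.3 and 37.3 FPKM at d23 and 78.1, 86.4 and 79.1 at d63. The early weaned ages did not overlap, while control d23 replicate 3 lay close to the d63 controls. Its log2 fold change was 1.56 ± 0.33 (SE) in early weaned rats (n = 3 per age, adjusted p = 0.00932) and 0.85 ± 0.33 in controls, where it was not called (adjusted p = 0.0936). Without that library the control value was 1.48 ± 0.16 (adjusted p = 0.000113).

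Rxra measured 52.9, 39.7 and 63.1 FPKM in the d23 controls and 96.2, 95.8 and 92.3 in the d63 controls, groups that did not overlap. Its log2 fold change was 0.87 ± 0.24 in controls (adjusted p = 0.0313). Early weaned libraries overlapped, at 42.7, 73.9 and 80.2 FPKM at d23 and 90.1, 83.0 and 78.0 at d63, with a log2 fold change of 0.47 ± 0.24 (adjusted p = 0.152). Rxrb, a ubiquitous isotype, fell in early weaned rats from 5.13, 5.85 and 5.27 FPKM to 3.66, 2.62 and 2.92, a log2 fold change of -0.70 ± 0.23 (adjusted p = 0.0475). In controls it stood at 6.44, 6.57 and 3.32 FPKM and then 3.20, 3.61 and 3.64, which overlapped and was not called (-0.64 ± 0.23, adjusted p = 0.08), and without d23 replicate 3 it was (-0.89 ± 0.14, adjusted p = 0.00105). Rxrb was past the threshold in 2 of 12 early weaned fits that left out 1 library, and Rxra in 7 of 12 control fits.

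Ppard encodes PPARδ, a fatty acid sensor found in most tissues. Its level was 3.91, 3.45 and 2.27 FPKM in the d23 controls and 1.25, 1.70 and 1.24 at d63, and in early weaned rats 3.12, 3.56 and 3.88 and then 1.13, 1.32 and 1.12. All 6 d23 libraries lay above all 6 d63 libraries. The log2 fold change was -1.20 ± 0.22 in controls (adjusted p = 0.00846) and -1.44 ± 0.22 in early weaned rats (adjusted p = 0.00251). Ppara, the main hepatic PPAR and driver of fatty acid oxidation, was not called at either comparison, with 8.38 to 20.1 FPKM in d23 controls and 10.8 to 23.6 in d63 controls.

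The retinoic acid receptors moved apart. Rarb, which is itself a retinoic acid target, stood at 25.1, 27.6 and 7.82 FPKM in the d23 controls and 5.73, 10.8 and 3.15 in the d63 controls. The control groups overlapped through replicate 3 of d23, and the log2 fold change was -1.61 ± 0.49 (adjusted p = 0.0467). In early weaned rats Rarb fell without overlap from 19.1, 18.9 and 11.8 FPKM to 2.83, 2.95 and 3.21, a log2 fold change of -2.35 ± 0.51 (adjusted p = 0.0096). Rara, the more widely expressed isotype, rose in controls from 6.31, 7.99 and 8.31 FPKM to 10.2, 10.4 and 11.6, a log2 fold change of 0.52 ± 0.13 (adjusted p = 0.0253). In early weaned rats Rara went from 7.77, 7.48 and 7.52 FPKM to 9.16, 7.71 and 9.30, which overlapped (0.32 ± 0.13, adjusted p = 0.0885). Rarb made up 63.1% ± 18.1 (SD, n = 3) of the summed RAR level in d23 controls and 32.5% ± 14.1 in d63 controls, and 62.5% ± 8.63 and 22.8% ± 1.91 in early weaned rats. Rarg was not called with age in either group. The control calls of Rarb and Rara were past the threshold in 2 and 7 of 12 fits that left out 1 library.

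Receptors of hepatocyte identity went in both directions. Hnf4a rose in controls from 65.9, 69.3 and 98.8 FPKM to 133, 144 and 158, and in early weaned rats from 82.5, 78.4 and 98.2 FPKM to 140, 135 and 124. Every d63 library exceeded every d23 library. Its log2 fold change was 0.90 ± 0.17 in controls (adjusted p = 0.00981) and 0.75 ± 0.17 in early weaned rats (adjusted p = 0.012). Nr5a2 went the other way, from 38.8, 32.5 and 8.51 FPKM to 10.01, 9.37 and 9.77 in controls and from 28.1, 46.3 and 23.9 FPKM to 9.11, 8.37 and 10.2 in early weaned rats. Control d23 replicate 3 lay below all the d63 controls, and the other d23 libraries lay above all d63 libraries. The log2 fold change of Nr5a2 was -1.45 ± 0.45 in controls (adjusted p = 0.0479) and -1.71 ± 0.45 in early weaned rats (adjusted p = 0.0204), with calls in 1 and 8 of 12 fits that left out 1 library.

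The COUP-TF branch, orphan receptors that often repress, split likewise. Nr2f6 rose from 11.8, 12.7 and 19.4 FPKM to 24.6, 22.5 and 22.0 in controls (0.67 ± 0.21 on the log2 scale, adjusted p = 0.0474). With early weaning it rose between the ages from 15.6, 10.6 and 12.8 FPKM to 26.2, 22.3 and 19.8 (0.93 ± 0.21, adjusted p = 0.0105), and in neither did the ages overlap. Nr2f1, a low-level gene, fell from 1.18, 1.35 and 1.11 FPKM to 0.47, 0.55 and 0.68 in controls (-1.09 ± 0.23, adjusted p = 0.0138). Its early weaned values were 0.87, 1.23 and 1.07 FPKM and then 0.51, 0.55 and 0.47, also without overlap (-0.92 ± 0.23, adjusted p = 0.016). Nr2c1, the testicular receptor TR2, fell in controls from 8.28, 7.75 and 5.40 FPKM to 3.67, 4.73 and 2.09 (-1.02 ± 0.27, adjusted p = 0.0275). Its early weaned libraries held 5.42, 5.33 and 5.60 FPKM and then 3.53, 2.90 and 3.10, which did not overlap and was not called (-0.66 ± 0.26, adjusted p = 0.0852). Leaving out 1 library kept the call in 2 of 12 fits for Nr2f6 in controls, 10 and 9 for Nr2f1 and 8 for Nr2c1.

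Esrra and Rora were the other clear falls. Esrra, which drives mitochondrial genes together with PGC-1 coactivators, held 36.9, 40.0 and 17.8 FPKM in the d23 controls and 9.79, 11.99 and 10.1 in the d63 controls. Early weaned rats had 42.2, 29.4 and 29.1 FPKM and then 10.4, 8.83 and 9.70. All d23 libraries lay above all d63 libraries, and the log2 fold change was -1.56 ± 0.27 in controls (adjusted p = 0.0074) and -1.68 ± 0.27 in early weaned rats (adjusted p = 0.00339). The loci of Nr5a2 and Nr3c2 overlap minor gene models on the opposite strand, and the annotated Esrra locus overlaps Trmt112 on the opposite strand, and the library kit is not stated to mark strand, so reads of such overlapping genes cannot be told apart. Rora, a receptor that also enters the circadian clock, had 9.16, 4.54 and 1.37 FPKM and then 0.71, 0.92 and 0.81 in controls, and 4.19, 6.55 and 3.43 FPKM and then 0.64, 0.63 and 1.30 in early weaned rats. These ages did not overlap either, with log2 fold changes of -2.62 ± 0.59 (adjusted p = 0.0178) and -2.34 ± 0.59 (adjusted p = 0.0169), each called in 9 of 12 fits that left out 1 library.

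Esr1, the oestrogen receptor ERα, was close to absent at d23 and measurable at d63. Its FPKM was 0.05, 0 and 0.02 in the d23 controls and 1.32, 0.18 and 0.59 at d63, and 0, 0.01 and 0.04 and then 0.13, 1.62 and 1.24 in early weaned rats. The d23 values correspond to 0 to 21 deposited count units per library, against 54 to 565 at d63, so the size of the fold is not given. It was called in both (adjusted p = 0.0365 and 0.0145), in 5 and 11 of 12 fits that left out 1 library. Its locus overlaps unnamed gene models, some on the opposite strand. The d63 libraries of a group varied widely, and the sex of the animals is not in the labels.

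The NR4A receptors, which many signals induce rapidly, varied most between libraries. Nr4a1 (Nur77) stood at 21.3, 5.46 and 0.25 FPKM in the d23 controls and 0.49, 0.25 and 0.36 at d63. Early weaned rats had 2.40, 22.1 and 32.7 FPKM at d23 and 0.32, 0.07 and 0.06 at d63. The control ages overlapped through replicate 3 of d23, and the early weaned ages did not. Log2 fold changes were -4.60 ± 1.36 in controls (adjusted p = 0.041) and -6.80 ± 1.52 in early weaned rats (adjusted p = 0.0108). Nr4a2 (Nurr1) held 8.69, 2.83 and 0.22 FPKM and then 0.63, 0.88 and 0.72 in controls, which overlapped and was not called (-2.41 ± 1.03, adjusted p = 0.124), and without d23 replicate 3 it was (-2.96 ± 0.78, adjusted p = 0.0137). In early weaned rats it fell from 1.58, 15.5 and 18.5 FPKM to 0.45, 0.44 and 0.40 (-4.66 ± 1.14, adjusted p = 0.0153). Nr4a3 (Nor1) had 0.13, 2.26 and 9.40 FPKM in early weaned d23 libraries and 0, 0.06 and 0 at d63, and was called (adjusted p = 0.0324). Its d63 libraries held 0, 15 and 0 count units, so no size is given. The Nr4a1 call in controls stood in 2 of 12 fits that left out 1 library, and the Nr4a2 and Nr4a3 calls in early weaned rats in 9 and 7.

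Classical immediate-early genes, a list chosen after the data were seen, were partly low in the same libraries. Jun stood at 108, 89.5 and 5.04 FPKM in the d23 controls and 28.0, 97.3 and 134 in the d23 early weaned rats, and Fos at 2.86, 3.35 and 0.17 FPKM and at 1.11, 5.60 and 6.18. The libraries lowest for Nr4a1 within each d23 group, control replicate 3 and early weaned replicate 1, were also the lowest for Jun, Junb, Fos and Atf3. This did not hold for all 7 genes of the list: Egr1 was lowest in control replicate 2, Fosb in control replicate 1, and Ier2 was highest in early weaned replicate 1. The summed level of the 7 immediate-early genes was 24.2 to 155 FPKM in d23 controls, 59.3 to 195 in d23 early weaned rats, 34.5 to 37.3 in d63 controls and 23.7 to 36.6 in d63 early weaned rats. The part of such a response in the NR4A values was not tested.

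**Figure D3:**
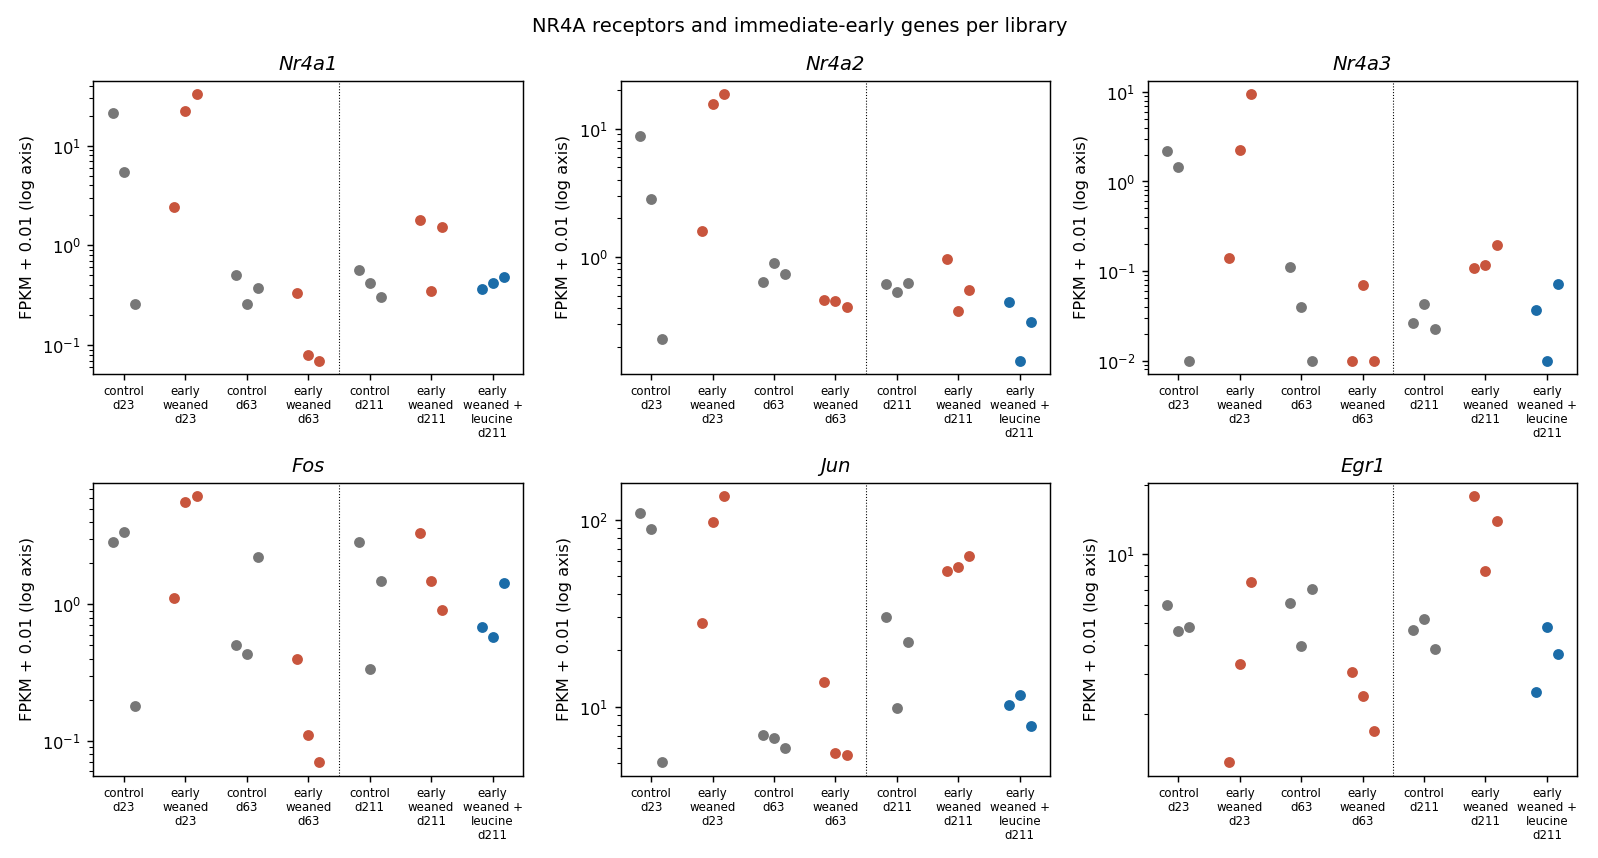
FPKM + 0.01 (log axis) of Nr4a1, Nr4a2 and Nr4a3 and of the immediate-early genes Fos, Jun and Egr1 in each library (points) of the 7 groups, grey for controls, red for early weaned and blue for early weaned with leucine. In d23 controls Nr4a1 ran from 0.25 to 21.3 FPKM, and the lowest library was also the lowest for Jun and Fos.

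The upstream sequences of Nr4a1 and Nr4a2 are shown because these paralogs moved together in the d23 libraries, and they are the 250 bases before the annotated start in RefSeq, build GRCr8. Of the 43 members, 37 had a window in the RefSeq table. Capitals mark TGCGTCA, an element related to AP-1 and CRE sites, searched on both strands and chosen after the sequence was read.
Nr4a1, chr7:134259888-134260137, plus strand: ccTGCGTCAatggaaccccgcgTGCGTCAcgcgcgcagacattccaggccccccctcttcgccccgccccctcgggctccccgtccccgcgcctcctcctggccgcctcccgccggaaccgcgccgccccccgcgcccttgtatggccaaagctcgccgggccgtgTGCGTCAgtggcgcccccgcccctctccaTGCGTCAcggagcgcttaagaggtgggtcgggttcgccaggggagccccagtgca
Nr4a2, chr3:62104888-62105137, minus strand: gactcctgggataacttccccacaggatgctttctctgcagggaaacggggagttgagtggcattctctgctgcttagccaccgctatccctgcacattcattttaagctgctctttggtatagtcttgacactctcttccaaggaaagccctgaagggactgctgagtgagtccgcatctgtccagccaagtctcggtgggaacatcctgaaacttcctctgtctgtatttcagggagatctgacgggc
The Nr4a1 window held 4 copies of TGCGTCA, whose first bases lay 248, 228, 84 and 55 bases upstream of the start. The Nr4a2 window held 0. Of all 33469 windows of the same length, 1.66% held the motif, and 1 window, that of Nr4a1, held at least 4 copies. That limit is the Nr4a1 window's own count, so this window met it in advance. The half-site AGGTCA was in 4 of 45 windows of the members, some of which have several, and in 14.1% of all windows. The full CRE, TGACGTCA, was in 0 of the 45 and 1.59% of all windows, and the E-box CACGTG in 3 of the 45 and 5.59% of all. A match is a description of these letters and not of binding.

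Other tested members were not called with age in either group: Thra, Thrb, Rarg, Ppara, Pparg, Nr1h2, Nr1h4, Vdr, Nr1i2, Nr1i3, Hnf4g, Rxrg, Nr2c2, Nr2f2, Esrrg, Nr3c1, Nr3c2, Nr6a1 and Nr0b2. Without control d23 replicate 3, 11 further members were called in controls: Nr1h3, Rxrg, Rxrb, Esrrg, Nr2c2, Nr3c1, Nr6a1, Nr4a2, Nr1i3, Thrb and Nr4a3. Rxrg, the least widespread RXR, stood at 1.45, 1.40 and 10.9 FPKM in the d23 controls and 9.91, 20.4 and 8.38 at d63, with a log2 fold change of 1.49 ± 0.69 (adjusted p = 0.147) that became 3.18 ± 0.38 (adjusted p = 0.000198) without that library. Nr3c1 stood at 34.5, 33.9 and 10.3 FPKM and then 12.5, 13.9 and 16.2, with -0.88 ± 0.38 (adjusted p = 0.129) becoming -1.27 ± 0.22 (adjusted p = 0.00174). In that library 10 of the 14 members called in early weaned rats lay nearer to the d63 control mean than to the mean of the other d23 controls.

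The thyroid hormone receptors were not called with all libraries in. Thrb held 8.34, 13.2 and 11.0 FPKM in early weaned rats at d23 and 5.86, 5.30 and 5.55 at d63. These ages did not overlap (-0.84 ± 0.32 on the log2 scale, edgeR adjusted p = 0.0681). The control ages overlapped, at 14.3, 8.34 and 5.17 FPKM and then 6.97, 6.41 and 5.57 (-0.55 ± 0.31, adjusted p = 0.235), and without d23 replicate 3 Thrb was called (-0.84 ± 0.25, adjusted p = 0.0236). Thrb made up 65.1% ± 16.5 (SD, n = 3) of the summed level of both isotypes in d23 controls and 48.8% ± 8.28 in d63 controls, which overlapped. In early weaned rats the share was 70.3% ± 6.62 at d23, from 63.7% to 77.0%, and 51.9% ± 9.57 at d63, from 42.6% to 61.7%, without overlap. At d211 Thra was the larger part. The Thrb share there was 36.1% ± 9.22 in controls, 35.2% ± 15.7 in early weaned rats and 41.3% ± 5.2 with leucine. The Thra locus overlaps another gene on the opposite strand, so its level and these shares are uncertain.

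No bile acid or xenobiotic receptor was called with age when all libraries were in. Nr1i2 ranged from 92.2 to 129 FPKM over the d23 libraries and from 70.5 to 122 over the d63 libraries, with log2 fold changes of 0.01 ± 0.22 in controls (adjusted p = 0.986) and -0.08 ± 0.22 in early weaned rats (adjusted p = 0.798). Nr1i3 held 49.5, 32.7 and 60.9 FPKM in early weaned rats at d23 and 65.5, 73.9 and 96.7 at d63, which did not overlap and was not called (0.85 ± 0.41, adjusted p = 0.135). In controls it held 36.3, 27.4 and 69.0 FPKM and then 105, 42.7 and 101, which overlapped (0.91 ± 0.41, adjusted p = 0.137), and without d23 replicate 3 it was called (1.39 ± 0.40, adjusted p = 0.0198). Nr1h4 held 22.7, 23.5 and 25.9 FPKM and then 30.4, 35.7 and 27.8 in early weaned rats, also without overlap or call (0.50 ± 0.21, adjusted p = 0.0951). Nr0b2, which FXR induces, was variable, from 12.5 to 65.2 FPKM at d23 and from 27.3 to 59.3 at d63.

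Lists of genes that serve the receptors are read against the 17.6% of all genes called with age in controls and the 27.0% called in early weaned rats. Without control d23 replicate 3 the control share was 37.9%. The age counts of the gene and marker lists below were not repeated without that library. A smaller control count is therefore not read as a difference by weaning. Of 11 tested coactivators, 0 rose and 2 fell in controls, and 0 rose and 6 fell in early weaned rats, with median log2 fold changes of -0.45 and -0.86 beside -0.04 and -0.02 for all genes. Ppargc1a, which encodes PGC-1α, the coactivator of PPARs and ERRα, stood at 54.5, 15.3 and 2.35 FPKM in the d23 controls and 0.98, 1.47 and 0.73 at d63, a log2 fold change of -4.51 ± 0.91 (adjusted p = 0.012). In early weaned rats it went from 21.3, 52.5 and 39.7 FPKM to 0.64, 0.39 and 0.64, a log2 fold change of -5.97 ± 0.98 (adjusted p = 0.00352). Among 9 corepressors, 2 rose and 2 fell in controls, and 3 rose and 1 fell in early weaned rats. Nrip1 fell in both (-1.70 ± 0.42 and -1.83 ± 0.43 on the log2 scale, adjusted p = 0.0242 and 0.0125), and Tbl1x and Tbl1xr1, subunits of the NCoR complex, rose in both. Of 8 chaperones of steroid receptors, 2 rose in controls and 3 in early weaned rats, and 0 fell. Of 15 tested genes of ligand synthesis and breakdown, 5 rose and 3 fell in controls, and 4 rose and 3 fell in early weaned rats. Dhrs3, a retinaldehyde reductase, rose in both (1.65 ± 0.33 and 1.86 ± 0.33, adjusted p = 0.0112 and 0.00465), and Cyp26a1, which breaks down retinoic acid, fell in both (-3.65 ± 1.10 and -5.12 ± 1.19, adjusted p = 0.0442 and 0.0126).

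The target genes of each receptor were mixed. Of 11 glucocorticoid receptor targets, 4 fell in controls and 7 in early weaned rats and 0 rose, with medians of -0.92 and -1.57 on the log2 scale. Igfbp1 and G6pc, both also controlled by insulin, were among them in both (Igfbp1 -5.86 ± 1.01 and -7.39 ± 1.08, G6pc -2.62 ± 0.49 and -3.72 ± 0.52). Of 11 HNF4A targets, 3 rose in controls and 4 in early weaned rats and 0 fell, with medians of 0.42 and 0.61. Apoa4 was in both (1.41 ± 0.27 and 2.60 ± 0.28). Of 16 PPAR targets, 1 rose and 1 fell in controls, and 6 rose and 1 fell in early weaned rats. Their sum ran from 1919 to 7502 FPKM in d23 controls, highest in replicate 3, and from 7637 to 9588 in d63 controls. The glucocorticoid receptor targets summed to 3074 to 18250 FPKM in d23 controls, lowest in replicate 3, and to 2139 to 2686 in d63 controls. LXR targets numbered 9, with 2 rising and 1 falling in controls and 3 rising and 4 falling in early weaned rats, Srebf1 up and Lpl down in both. Of 13 tested CAR and PXR targets, 4 rose and 3 fell in controls and 3 rose and 3 fell in early weaned rats, and of 6 tested FXR targets 0 were called in controls and 1 rose and 1 fell in early weaned rats. Thyroid hormone targets gave 1 rise of 7 in controls and 2 rises and 2 falls in early weaned rats, and retinoic acid targets 2 rises and 1 fall of 5 and 3 rises and 1 fall. Dhrs3 and Cyp26a1 stand in both the ligand list and the retinoic acid list.

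Markers of other liver cells were compared between the ages as well, against the same 17.6% and 27.0% of all genes. Of 8 stellate cell markers 3 fell in controls and 3 in early weaned rats, and 0 rose. By direction alone, 2 of the 8 were higher at d63 in controls and 3 in early weaned rats. Their summed level was 138 to 195 FPKM in the d23 libraries and 64.4 to 93.4 at d63, with none at 0. Most of that sum was Col3a1, at 100 to 157 FPKM at d23 and 47.6 to 67.9 at d63. Of 7 endothelial markers 2 fell in controls and 5 in early weaned rats, and of 8 lymphocyte markers 3 rose in controls and 2 in early weaned rats. Of 8 Kupffer cell markers 1 fell in each, and of 6 cholangiocyte markers 1 fell in controls and 0 in early weaned rats. Of the 8 hepatocyte markers 2 fell in controls, and 2 rose and 3 fell in early weaned rats. Their part in the receptor values was not tested.

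Early weaning itself gave no called receptor at d23 or d63. At d23, 0 of 36 members were called against 0.013% of all genes, and 1 passed an unadjusted p under 0.05 against 6.20%. That member was Pparg, the adipogenic PPAR, which is low in liver, at 0.46, 0.40 and 0.20 FPKM in controls and 1.00, 0.56 and 1.37 in early weaned rats. The groups did not overlap, as for 8.3% of all genes, and the log2 fold change of 1.43 ± 0.59 did not pass adjustment (edgeR, adjusted p = 0.785). At d63, 0 members were called, against 0.0% of all genes, and 0 passed an unadjusted p under 0.05, against 6.05%. DESeq2 called 0 members at both ages.

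At d63 the groups did not overlap in FPKM for 11.1% of the members tested and 18.6% of all genes. Of those members, the 3 with the smallest p were Nr1h2, Rara and Nr4a2, and none of these was called. Nr1h2 held 23.2, 26.1 and 25.5 FPKM in controls and 21.1, 19.5 and 20.0 in early weaned rats (-0.22 ± 0.11 on the log2 scale, adjusted p = 0.848). Rara held 10.2, 10.4 and 11.6 FPKM and 9.16, 7.71 and 9.30 (-0.21 ± 0.13, adjusted p = 0.899). Nr4a2 held 0.63, 0.88 and 0.72 FPKM and 0.45, 0.44 and 0.40 (-0.70 ± 1.01, adjusted p = 0.994). The median change of the members was 0.01 at d23 and -0.06 at d63 on the log2 scale, beside -0.03 and -0.01 for all genes. Of the target and coregulator lists, none had a called gene at either age, while 15 of 16 PPAR targets at d23 and 14 of 16 at d63 had negative fold changes, with medians of -0.63 and -0.74.

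At d211, 1 receptor was called: Ppard was higher in early weaned rats than in controls. Its FPKM was 0.60, 1.18 and 1.05 in controls, 9.36, 5.11 and 4.58 in early weaned rats and 0.93, 1.29 and 0.82 in early weaned rats given leucine. Every early weaned library lay above every library of the other groups, and the controls and the leucine group overlapped. The log2 fold change of early weaned against control was 2.51 ± 0.35 (n = 3 per group, adjusted p = 0.0354), and that of leucine against early weaned was -2.48 ± 0.35 (adjusted p = 0.0294). These comparisons share the early weaned libraries. Leucine against control gave 0.03 ± 0.33 (adjusted p = 0.984).

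**Figure D4:**
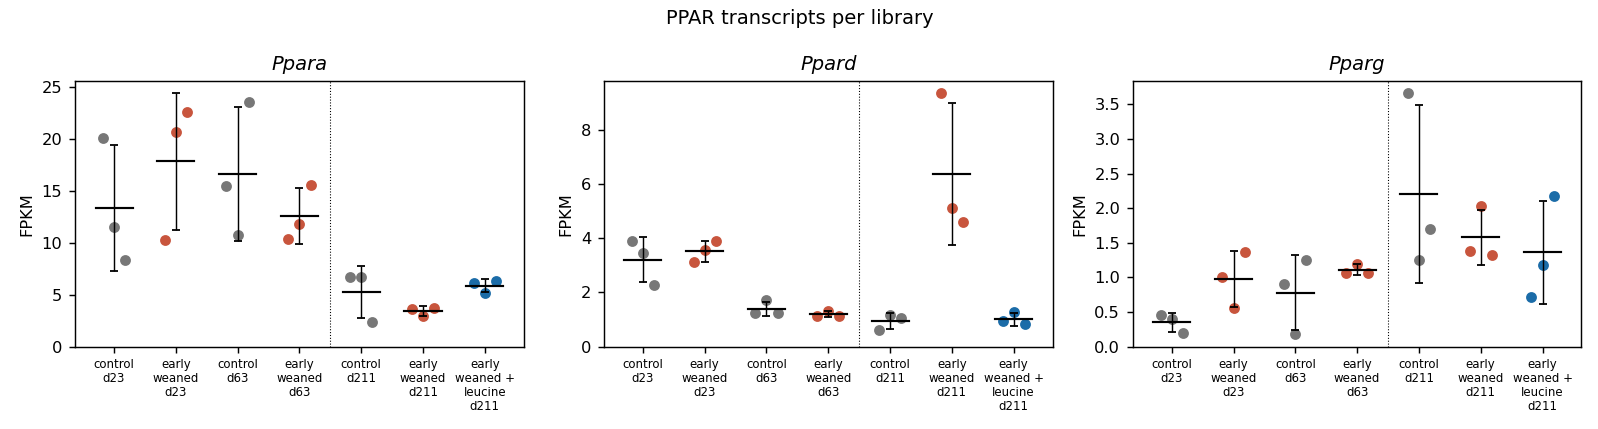
FPKM (linear axis) of Ppara, Ppard and Pparg in each library (points) of the 7 groups, with the group mean and SD as bars, grey for controls, red for early weaned and blue for early weaned with leucine. The 3 early weaned d211 libraries hold 4.58 to 9.36 FPKM of Ppard and the other d211 libraries 0.60 to 1.29.

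The Ppard call depended on which libraries entered, although its direction did not. The adjusted p for early weaning rose to 0.0933 and 0.107 without control replicate 2 or 3, to 0.0953 without early weaned replicate 1, and to 0.0665 and 0.0511 without leucine replicate 1 or 2, which enter through the shared spread. For leucine it rose to 0.112 without early weaned replicate 1 and to 0.101, 0.0805 and 0.0978 without leucine replicate 1, 2 or 3. The log2 fold change stayed between 2.17 and 2.74, and between -2.69 and -2.14. With a replicate block the adjusted p for early weaning was 0.0569. DESeq2 gave 3.51e-10 for early weaning and 4.23e-10 for leucine. Ppard made up 54.5% ± 9.21 (SD, n = 3) of the summed PPAR level in early weaned rats, 13.0% ± 7.60 in controls and 12.6% ± 4.05 with leucine. Ppara made up 30.9% ± 6.75, 60.1% ± 13.8 and 71.4% ± 6.35 in that order.

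Ppard was the single called member of 35 tested, 2.86%, against 0.719% of all 15019 genes for early weaning and 0.36% for leucine. At an unadjusted p under 0.05, 7 members differed with early weaning, 2 higher and 5 lower, or 20.0% against 17.3% of all genes. With leucine 8 differed, 6 higher and 2 lower, or 22.9% against 13.1%. The groups did not overlap in FPKM for 20.0% of the members with early weaning and 28.6% with leucine. For all genes these shares were 25.0% and 22.9%. For leucine against control, 0 were called, against 0.0133%, and 3 passed the unadjusted p, Esr1, Nr2f6 and Nr4a2, or 8.57% against 10.8%. DESeq2 called Hnf4a and Nr1h3 besides Ppard for early weaning, Nr2f2 besides Ppard for leucine, and 0 members for leucine against control. Without early weaned replicate 2, which lay nearer to the leucine group, edgeR called 2 members for early weaning, Ppard and Nr4a1, and 4 for leucine, Ppard, Nr4a1, Nr0b2 and Nr2f2.

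**Figure D5:**
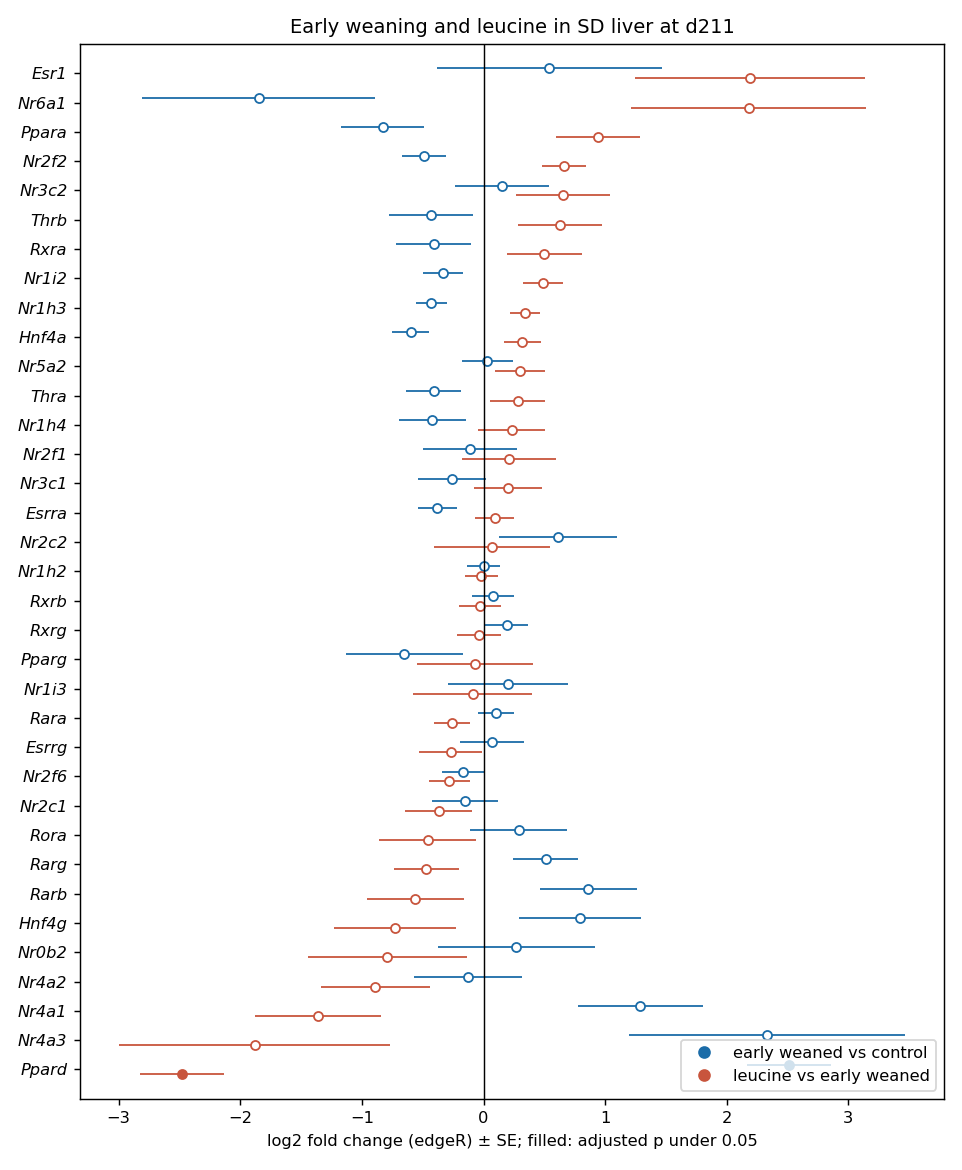
Log2 fold change at d211 (edgeR, x axis, ± SE) for each expressed receptor (rows) in early weaned against control (blue) and in leucine against early weaned rats (red), with filled points where the adjusted p was under 0.05. The only filled points are those of Ppard, at 2.51 and -2.48; the comparisons share the early weaned libraries.

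Among members that were not called, Ppara held 6.70, 6.67 and 2.33 FPKM in controls, 3.66, 2.91 and 3.70 in early weaned rats and 6.09, 5.15 and 6.32 with leucine. The leucine and early weaned libraries did not overlap (0.94 ± 0.34 on the log2 scale, adjusted p = 0.269), and early weaned and control libraries did (-0.83 ± 0.34, adjusted p = 0.251). Nr2f2, COUP-TFII, held 9.30, 10.2 and 9.58 FPKM in controls, 7.65, 9.24 and 6.96 in early weaned rats and 10.6, 10.3 and 13.2 with leucine. Its early weaned libraries lay below those of the other groups, with -0.49 ± 0.18 against control (adjusted p = 0.206) and 0.66 ± 0.18 for leucine (adjusted p = 0.138). Rarb held 4.17, 9.20 and 3.98 FPKM in controls, 12.8, 11.6 and 12.5 in early weaned rats and 9.08, 9.52 and 3.82 with leucine. The early weaned libraries were again apart, higher this time, with 0.86 ± 0.40 against control (adjusted p = 0.31).

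Hnf4a and Nr1h3, which DESeq2 called for early weaning, were not called by edgeR. Hnf4a held 137, 92.9 and 104 FPKM in controls, 98.1, 71.6 and 86.9 in early weaned rats and 89.2, 109 and 88.8 with leucine. The controls and the early weaned libraries overlapped (-0.60 ± 0.15 on the log2 scale, adjusted p = 0.0903). Nr1h3 held 68.9, 87.1 and 77.7 FPKM in controls, 70.1, 63.8 and 68.2 in early weaned rats and 77.9, 76.4 and 75.4 with leucine. The leucine libraries lay above the early weaned ones, and the controls overlapped them (-0.43 ± 0.13 for early weaning, adjusted p = 0.127). Nr1i3 varied more within groups than between them, from 24.1 to 70.3 FPKM in controls, 31.8 to 74.0 in early weaned rats and 27.0 to 72.3 with leucine. Nr0b2 held 86.0, 5.85 and 55.7 FPKM in early weaned rats, the widest spread of its d211 groups.

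For leucine against control, 14.3% of the members and 16.3% of all genes did not overlap, and 3 of those members had the smallest p. Nr2f6 held 50.4, 67.2 and 62.9 FPKM in controls and 49.3, 39.9 and 49.0 with leucine (-0.45 ± 0.17 on the log2 scale, adjusted p = 0.428). Nr3c2, the mineralocorticoid receptor, held 0.38, 0.41 and 0.19 FPKM and then 0.61, 0.61 and 0.57 (0.80 ± 0.39, adjusted p = 0.496). Nr4a2 held 0.61, 0.53 and 0.61 FPKM and then 0.43, 0.15 and 0.30 (-1.02 ± 0.45, adjusted p = 0.458). Esr1 varied widely with leucine, at 4.49, 3.16 and 0.48 FPKM, against 0.60, 0.44 and 0.15 in controls, and the groups overlapped. The median change of the members was 0.00 for early weaning, -0.02 for leucine and 0.04 for leucine against control on the log2 scale, beside 0.02, 0.00 and 0.01 for all genes.

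Nr4a1 was highest in the early weaned d211 libraries, at 1.77, 0.34 and 1.53 FPKM against 0.55, 0.41 and 0.29 in controls and 0.35, 0.41 and 0.47 with leucine. Replicate 2, the low one, overlapped the other groups. Jun in those libraries was 53.3, 55.7 and 64.2 FPKM in early weaned rats, 30.3, 9.80 and 22.2 in controls and 10.2, 11.6 and 7.87 with leucine.

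Target genes gave few calls at d211, read against 0.719% of all genes called for early weaning and 0.36% for leucine. Of 16 PPAR targets 0 were called in any comparison, with median log2 fold changes of -0.67 for early weaning and -0.29 for leucine. Of 13 CAR and PXR targets, 3 fell with early weaning and 0 rose: Sult2a1 (-2.76 ± 0.40, adjusted p = 0.0357), Gsta2 (-1.36 ± 0.22, adjusted p = 0.0397) and Cyp2b2 (-3.22 ± 0.55, adjusted p = 0.0438). Gsta2 rose with leucine (1.51 ± 0.22, adjusted p = 0.0344). Called or not, 11 of the 13 were lower with early weaning and 12 of the 13 higher with leucine, and these comparisons share the early weaned libraries. For leucine against control, 9 of the 13 were lower and 4 higher, with a median of -0.18 beside 0.01 for all genes. Gsta2 and Cyp2b2 have close gene copies, so their counts may be split between them. Nr1i2 and Nr1i3 themselves were not called. The coactivators, corepressors, chaperones, ligand enzymes and the LXR, FXR, glucocorticoid, thyroid hormone, retinoic acid and HNF4A targets had 0 called genes in any d211 comparison.

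Clock and immediate-early genes, lists chosen after the data were seen, differed in part between the d211 groups. Of the 9 clock genes, 1 was called higher and 3 lower with early weaning, against 0.719% of all genes. With leucine, 2 were called higher and 0 lower, against 0.36%. Of the 7 immediate-early genes, 0 were called with early weaning and 2 were called lower with leucine. For leucine against control, 0 genes of either list were called. Dbp, a clock output gene, held 72.6, 68.6 and 139 FPKM in controls, 0.87, 0.99 and 14.6 in early weaned rats and 81.5, 67.8 and 175 with leucine. The summed level of the 9 clock genes was 102 to 186 FPKM in controls, 33.6 to 47.2 in early weaned rats and 108 to 222 with leucine. That of the 7 immediate-early genes was 54.7 to 84.7, 136 to 164 and 40.4 to 50.9 FPKM. The early weaned libraries did not overlap the other groups in these sums. Dbp was most of the clock sum in the controls and the leucine group. Of the 3755 genes whose early weaned and control libraries did not overlap in FPKM, 3118 were higher in early weaned rats. By gene, they lay below both other groups for Dbp, Tef, Hlf and Ciart, and above both for Arntl, Npas2, Jun, Junb, Egr1 and Ier2. They overlapped at least one group for Clock, Per2, Cry1, Fos, Fosb and Atf3. The time of sampling is not in the labels. The summed level of the 7 cholangiocyte markers was 8.26 to 13.5 FPKM in controls, 16.2 to 30.6 in early weaned rats and 10.1 to 15.5 with leucine, with 1 marker at 0 in controls. Epcam made up most of it, at 24.5, 13.95 and 28.3 FPKM in early weaned rats against 10.95, 7.13 and 9.78 in controls. Krt19 overlapped, and Krt7, Sox9 and Cftr did not exceed 0.129 FPKM in either group. All 6 tested cholangiocyte markers were higher with early weaning and for leucine against control, with log2 medians of 0.50 and 0.57. With early weaning 0 of 8 hepatocyte, 6 of 8 Kupffer, 3 of 7 endothelial, 4 of 8 stellate and 6 of 8 lymphocyte markers were higher. For leucine against early weaned these counts were 7, 8, 7, 6 and 3. In these comparisons 0 of the cell type markers were called, and those for early weaning and for leucine share the early weaned libraries. The part of any of these in the Ppard difference was not tested.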

How the data were processed

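RNA-seq of rat liver was deposited as 2 tables, one for 12 Wistar libraries and one for 9 SD libraries, and each library was assigned to its group by its title. The RNA was prepared with an RNeasy kit and a SMARTER mRNA-Seq kit, per the labels' protocols. FPKM values were computed by the authors and used as deposited, for levels and isotype shares, with 0.0001 in the SD table read as 0. The deposited estimated counts were whole numbers whose low values fell at multiples of 4, so a count unit is not 1 fragment, and dividing by 4 was an alternative. Both tables carry rat Ensembl identifiers, although GRCm38 and mm10, builds of the mouse genome, are listed in the submitters' processing notes. For the aligner and the counter, nothing is given in the sources used here. Totals ran from 52054644 to 75118153 count units per library.

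Each table was fitted alone with edgeR 4.0.16 (R 4.3.3), with TMM scaling, filterByExpr at a minimum count of 10, the quasi-likelihood test, and Benjamini-Hochberg adjustment over all genes tested, called at 0.05. DESeq2 1.42.0 and limma 3.58.1 on log2(FPKM + 1) and log2(FPKM + 0.1) were alternatives, with other scaling, no count filter, a replicate block and each library left out. The fit was tested on simulated data. Receptors called in any comparison are given per library, as are, in each comparison, the 3 expressed members of smallest p whose groups did not overlap, and from each gene list at most 3 called genes. The 43 members, the 19 gene lists and 2 later lists (clock and immediate-early genes) were chosen with earlier results of these data known.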

Additional observations from a re-analysis of the deposited data

Results flagged for a closer look

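Rara had early weaned and control libraries that did not overlap in FPKM at d63 and at d211, on opposite sides. At d63 every early weaned library lay below every control, with a log2 fold change of -0.21, and at d211 every early weaned library lay above every control, with a log2 fold change of 0.10 ± 0.15 (SE). At d63, 18.6% of all genes did not overlap, and 2111 of those 2871 were lower in early weaned rats. At d211, 25.0% of all genes did not overlap, and 3118 of those 3755 were higher in early weaned rats. Each Rara difference thus lay on the side that most such genes took. Neither Rara change was called, the ages come from different strains and tables, and the difference between them was not tested.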

How the results depend on the processing

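Counts of called receptors moved mostly when 1 library was left out. With age they ranged from 3 to 24 in controls, against 13, and from 8 to 21 in early weaned rats, against 14. At d211 they ranged from 0 to 2 for early weaning and from 0 to 4 for leucine, against 1 each. DESeq2 gave 3 and 2 at d211. For early weaning at d23 and d63, its difference between ages, and leucine against control, every alternative gave 0. Samples with the same replicate number did not deviate together: over 7 group pairs the correlation of deviations ran from -0.108 to 0.127, and 0 pairs had every correlation over 0.1, so the numbers were not taken as a pairing. With the replicate block the calls were 0 for early weaning at d211, 9 with age in controls and 13 with age in early weaned rats. Over 40 pairs of a named receptor and a comparison, 733 values were recomputed, of which 608 kept direction and side of the threshold, 123 lost the call, 2 gained one and 0 reversed. On log2(FPKM + 1), limma moved the median of all genes to 0.16 for early weaning at d211, -0.13 for leucine and -0.11 for age in early weaned rats. With an FPKM of at least 1, 35 Wistar and 28 SD receptors counted as expressed. With 3 libraries a group, low receptors such as Esr1 and Nr4a3 rest on few counts.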
